A study of Sus scrofa with 6 samples.

Results

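F-box and KLHL/KBTBD genes encode substrate adaptors of cullin-RING ubiquitin ligases, and their mRNA levels were examined in porcine oocytes matured in vitro. Members were rows of the gene-level expression table whose symbol begins with FBXO, FBXL, FBXW, KLHL or KBTBD followed by a digit. This gave 104 of 29861 genes, of which 59 were F-box genes (17 FBXL, 35 FBXO and 7 FBXW) and 45 were KLHL/KBTBD genes (37 KLHL and 8 KBTBD). The table holds FPKM, the fragments of a transcript scaled to its length and to the size of the library, so levels can be compared between genes per unit of length.

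The 6 samples formed 3 groups of 2: control oocytes, oocytes exposed to heat stress, and oocytes exposed to heat stress in medium supplemented with NMN (nicotinamide mononucleotide, a precursor of NAD+). No group received NMN without heat stress. All oocytes came from abattoir ovaries and matured within cumulus-oocyte complexes, and oocytes were pooled for each RNA extraction. The labels give the germinal vesicle stage and a time of 24 h, whereas the study's methods describe collection at metaphase II, so the stage is uncertain. The labels do not say whether replicates came from separate cultures, so P-values measure only the spread between these samples, which may be technical.

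An F-box protein binds SKP1 through its F-box and is thereby held on the scaffold CUL1 with the RING protein RBX1, forming an SCF ligase, while the rest of the protein selects the substrate. KLHL and KBTBD proteins bind CUL3 directly through a BTB domain and select substrates through kelch repeats, so that 1 polypeptide does the work of SKP1 and the F-box protein. Both kinds of ligase are switched on by attachment of NEDD8 to the cullin. In oocytes, regulated proteolysis is known for its part in holding and releasing meiotic arrest, and many oocyte mRNAs are stored with short poly(A) tails and activated through cytoplasmic polyadenylation elements (CPEs) near their 3′ ends.

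The sequences below are shown because they lie in the mRNA ends of the 4 members that both contained such an element and were higher in NMN-supplemented than in control oocytes. Each is a window of 30 bases from the last 100 bases of the longest annotated transcript (RefSeq, Sscrofa11.1), written 5′ to 3′ in the sense of the mRNA with T for U, and capitals mark the element, TTTTAT or TTTTAAT. The FBXO5 windows lie at chr1:13478392-13478421 and chr1:13478421-13478450 on the plus strand, and the FBXO30 window at chr1:19777522-19777551 on the plus strand. The FBXO33 window lies at chr1:169877203-169877232 on the minus strand, and the KLHL11 window at chr12:20854245-20854274 on the plus strand.
FBXO5, first element: tatgTTTTAATattttgtacatttgtaaat
FBXO5, second element: tgtttatTTTTATatgtcaaagaaaataaa
FBXO30: tcatgatctttTTTTATaattttttacttt
FBXO33: aaatgtatattcTTTTAATcaatgaataaa
KLHL11: acaatagcttgTTTTATgttcctcaggcta
The window of FBXO33 and the second window of FBXO5 also contain the polyadenylation signal AATAAA, 5 and 11 bases after the element. In FBXO30 and KLHL11 the next AATAAA followed after 63 and 58 bases.

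The libraries expressed oocyte genes. Of 14 oocyte markers in the table, 12 had a mean of at least 1 FPKM, and their summed level was 2633 to 2777 FPKM in control, 2643 to 2789 under heat stress and 2376 to 2578 with NMN. BMP15 made up most of that sum, at 1606 to 1940 FPKM. Some of the other oocyte markers fell with NMN against control at an adjusted P under 0.05 in limma. These were ZAR1, from 17.3 and 23.8 to 4.30 and 2.84 FPKM (log2 fold change -2.24), ZP3 (-1.26), ZP4 (-1.02) and GDF9, from 732 and 777 to 435 and 353 FPKM (-0.94). NLRP5 (-0.61), NOBOX (-0.50), ZP2 (-0.22) and H1FOO (-0.08) were lower without passing. KPNA7 (0.38), DPPA3 (0.28), BMP15 (0.13) and DAZL (0.03) went the other way, also without passing. KPNA7 was at 26.3 and 27.1 FPKM in control and 37.6 and 32.6 with NMN. In heat stress against control, ZAR1, ZP3, ZP4 and GDF9 were already lower, without passing. Their log2 fold changes there were -0.63, -0.89, -0.65 and -0.58. Of 17 cumulus and granulosa cell markers, INHBA and GREM1 reached 1 FPKM, AMH and INHA were listed at 0 in every sample, and the sum was 15.9 to 20.3, 11.2 to 14.5 and 9.32 to 15.3 FPKM. The summed level of 6 blood and immune markers was at most 0.629 FPKM, with LYZ at 0 in every sample. Mitochondrial genes took 61.7% to 66.4% of all FPKM in control, 62.4% and 71.6% under heat stress and 74.2% and 74.7% with NMN, and 1 gene, LOC100513953, took 13.9% in heat stress replicate 1 and 0 elsewhere. The part of these shares and markers in the results was not tested. Values under other scalings are given beside the member calls they change. For all tested genes, only medians and counts of calls are given under other scalings. No such values are given for other single genes, for steps over the groups or for motif shares. FPKM are scaled to each library, so in pooled oocytes neither cell number nor RNA per cell can be read from them.

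The families passed the filter for testing at about the same rate. A mean of at least 1 FPKM over the 6 samples was reached by 20 F-box genes (33.9%; 7 FBXL, 12 FBXO and 1 FBXW) and by 15 KLHL/KBTBD genes (33.3%; 11 KLHL and 4 KBTBD), 35 of the 4713 genes that passed. Of 39 F-box genes below this level, 15 had a mean under 0.1 FPKM and none was at 0 in all samples, whereas of 30 KLHL/KBTBD genes 18 had a mean under 0.1 FPKM and 5 (KBTBD12, KLHL30, KLHL33, KLHL34 and KLHL38) were at 0 throughout. A gene can pass this filter through the group in which it is high, as KLHL9 and FBXO45 did, so counts over the 35 describe the genes that passed and not the families.

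The highest member was KBTBD13, known from skeletal muscle and nemaline myopathy. Its level was 222 and 175 FPKM in control, 188 and 206 under heat stress and 180 and 187 with NMN, and no comparison was called. It ranked 49th of the 4713 genes by mean FPKM. The gene model (chr1:163113280-163116889, plus strand, Sscrofa11.1) is a single exon of 3610 bases marked as incomplete at its 5′ end, with a coding part of 1497 bases and a 3′ untranslated part of 2113 bases. Its neighbour RASL12, on the other strand, was at 13.3 to 21.0 FPKM, and UBAP1L on its other side was at most at 0.0129 FPKM.

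FBXO5, which encodes EMI1, an inhibitor of the anaphase-promoting complex, was the highest F-box gene with a mean of 43.6 FPKM and rank 224. It was followed by FBXL14 (rank 301), which targets SNAI1, and FBXO30 (rank 421), studied in chromosome segregation of mouse oocytes. FBXO21 (rank 746), FBXO10 (rank 800) and FBXL12 (rank 1012) completed the 6 highest F-box genes. Among KLHL/KBTBD genes, KBTBD13 was followed by KBTBD4 (rank 650), an adaptor for the CoREST complex, then KLHL11, KLHL21, KLHL25 and KLHL7. When the 35 genes were ordered by mean FPKM, the sample ranges of neighbours overlapped in all but 2 of 34 pairs, the steps from KBTBD13 to FBXO5 and from FBXO5 to FBXL14.

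**Figure D1:**
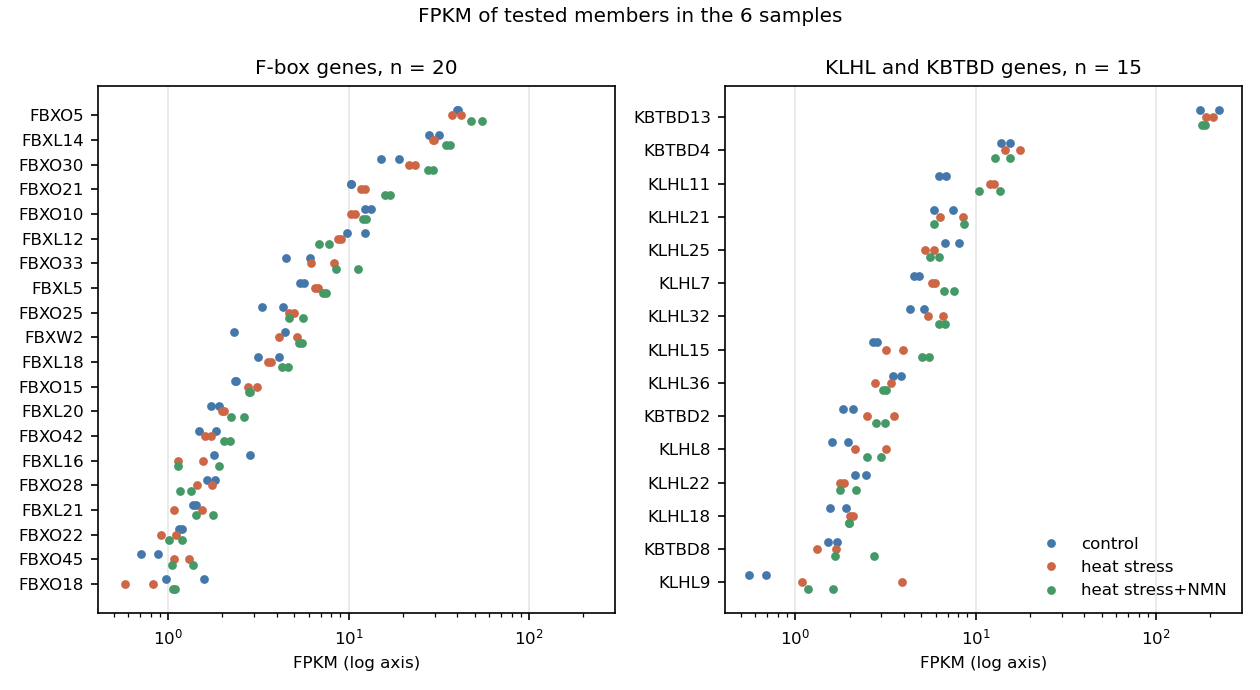
FPKM of the 20 F-box genes (left) and 15 KLHL/KBTBD genes (right) with a mean of at least 1 FPKM, on a log axis, with 1 point per sample coloured by group. KBTBD13 stood at 175 to 222 FPKM in the 6 samples, apart from all other members, and most neighbouring genes overlapped.

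The median levels of the families overlapped. In the control samples the median FPKM over the tested F-box genes was 3.72 and 2.76, in heat stress 3.91 and 4.12, and with NMN 4.98 and 4.49. The corresponding KLHL/KBTBD medians were 3.85 and 3.50, 3.92 and 3.93, and 5.05 and 5.52. The log2 ratio of the medians averaged -0.11 over the 6 samples. It went from -0.34 in control replicate 2 to 0.068 in heat stress replicate 2, the only sample above 0. The pooled SD between replicates was 0.17, which is the spread of single samples and not of the average. This ratio depended on the filter: it was -1.34 over members with a mean of at least 0.1 FPKM and 0.77 over those with at least 5. Its sign also depended on KBTBD13. Without that gene the KLHL/KBTBD medians were 3.27 and 3.17 in control, 3.66 and 3.72 in heat stress, and 4.13 and 4.33 with NMN. They then lay below the F-box medians in every sample except control replicate 2. Over all tested genes the median stayed between 3.11 and 3.22 FPKM. Summed FPKM of the F-box genes was 166 and 148 in control, 159 and 169 under heat stress and 205 and 192 with NMN, so that only the NMN samples lay above all control samples and all heat-stressed samples. FBXO5, FBXL14 and FBXO30 were the largest parts of that sum. They were at 39.8, 31.9 and 19.1 FPKM in control replicate 1 and at 55.1, 36.3 and 27.7 in NMN replicate 1. KBTBD13 alone made up 70.5% to 77.4% of the KLHL/KBTBD sum, and without it that sum was 64.7 and 57.6, 73.9 and 72.8, and 75.2 and 74.3 FPKM.

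Several members chosen for their known roles in cell division or mitochondria were low. FBXW7, which targets cyclin E, was at 0.0715 to 0.129 FPKM, and FBXW11, a β-TrCP protein, at 0.362 to 0.674 FPKM. KLHL13, which acts with KLHL9 on Aurora B, was at most at 0.0338 FPKM. FBXO7, which acts with PINK1 and Parkin in mitophagy, was at 1.03 and 1.07 FPKM in control, 1.01 and 0.770 under heat stress and 0.505 and 0.608 with NMN. Its mean of 0.833 placed it just below the filter, so it was not tested, although both NMN samples lay below the other 4.

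The other genes next to the filter showed how it divided the members. Just below it were FBXO48 (mean 0.612 FPKM), which went from 0.0237 to 1.09 over the samples, KLHL28 (0.960) and KLHL42 (0.882). KLHL28 was at 0.725 and 0.288 FPKM in control and at 1.06 to 1.31 in the other samples. Just above were FBXO18 (mean 1.02), a DNA helicase, and FBXO45 (1.07), which pairs with MYCBP2, and among KLHL/KBTBD genes KLHL9 (1.51) and KBTBD8 (1.77), an adaptor known from neural crest specification.

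The first comparison asked what heat stress did to these mRNAs. Relative to control, 3 members rose and 1 fell at an unadjusted P under 0.05, with no overlap between samples. The share higher was 8.57% of the 35 members against 12.7% of all tested genes, and the share lower was 2.86% against 10.1%. No member passed an adjusted P of 0.05 in limma, and no gene of the 4713 did. The split of calls moved with the scaling: it was 3 higher and 3 lower after quantile normalization, 1 and 1 after scaling to the non-mitochondrial sum, and 2 and 0 when LOC100513953 was also left out of that sum.

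KLHL11 changed the most among those that passed. Its level was 6.88 and 6.22 FPKM in control and 12.7 and 12.0 in heat-stressed oocytes, higher by 0.82 ± 0.15 on the log2 scale (SE; adjusted P = 0.111, limma). The KLHL10 gene, which overlaps it on the other strand, was at most at 0.0996 FPKM. KLHL11 kept an unadjusted P under 0.05 whichever sample was left out. All 4 calls of this comparison were lost after scaling to the non-mitochondrial sum, where the difference in KLHL11 was 0.49 on the log2 scale, and KLHL11 kept its call when LOC100513953 was left out of that sum.

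FBXO30 rose from 19.1 and 15.0 to 21.6 and 23.3 FPKM, by 0.38 ± 0.14 on the log2 scale (adjusted P = 0.205, limma). KBTBD2, which controls the level of the p85α subunit of PI3 kinase, rose from 2.10 and 1.84 to 2.51 and 3.51 FPKM, by 0.42 ± 0.16 (adjusted P = 0.208, limma). KLHL25, which targets the translational repressor 4E-BP1, fell from 8.08 and 6.76 to 5.23 and 5.85 FPKM, with a log2 fold change of -0.36 ± 0.14 (adjusted P = 0.204, limma). These 3 calls were less stable than that of KLHL11. FBXO30 passed only when control replicate 1 was the sample left out, KBTBD2 only without heat stress replicate 1, and KLHL25 only without control replicate 2. The log2 fold change was 0.22 for FBXO30 without control replicate 2 and 0.24 for KBTBD2 without heat stress replicate 2. The count of 4 calls became 1 without either NMN-supplemented sample, which enter only through the shared estimate of the spread.

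KLHL9, whose protein removes Aurora B from mitotic chromosomes together with KLHL13, had the largest log2 fold change of the 35 members and did not pass the unadjusted threshold. It was at 0.685 and 0.554 FPKM in control, 3.92 and 1.09 under heat stress and 1.17 and 1.62 with NMN. Heat stress replicate 1 alone was high, and the log2 fold change was 0.99 ± 0.40 (adjusted P = 0.220, limma). It was 0.37 without heat stress replicate 1, and 1.60 with a call without heat stress replicate 2. KLHL21, an adaptor for Aurora B at the midzone, was at 7.49 and 5.84, 8.45 and 6.36, and 8.66 and 5.89 FPKM, with overlap of all groups. KLHL22, which acts on PLK1, was at 2.15 and 2.47 FPKM in control and 1.85 and 1.76 in heat stress, without a call.

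The second comparison asked what NMN did to heat-stressed oocytes. Relative to heat stress, 3 members rose and none fell, 8.57% against 7.15% of all tested genes higher and 0 against 6.45% lower. No member and none of the 4713 genes passed an adjusted P of 0.05 in limma. FBXO21, an SCF adaptor for the transcriptional regulator EID1, was at 11.7 and 12.3 FPKM under heat stress and 16.9 and 15.8 with NMN, higher by 0.42 ± 0.11 on the log2 scale (SE; adjusted P = 0.268, limma). KLHL15, which targets a regulatory subunit of the phosphatase PP2A, was at 3.18 and 3.93 against 5.05 and 5.52 FPKM (0.47 ± 0.13, adjusted P = 0.300, limma). FBXO5 was at 37.5 and 41.9 against 55.1 and 47.4 FPKM (0.36 ± 0.13, adjusted P = 0.352, limma).

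In all 3 genes the NMN samples lay above the heat-stressed samples, and none of the 3 had been called in heat stress against control. Without heat stress replicate 1, FBXO21 was the only call, and without control replicate 1 or control replicate 2 the count was 5. FBXO21 lost its call without NMN replicate 1 (log2 fold change 0.37), FBXO5 without heat stress replicate 1 (0.28) or NMN replicate 1 (0.25), and KLHL15 without heat stress replicate 1 (0.35) or NMN replicate 2 (0.41). After scaling to the non-mitochondrial sum the fold changes were larger (0.77, 0.74 and 0.76 for FBXO21, FBXO5 and KLHL15) but no member passed, and the median of all tested genes itself moved from 0.078 to 0.35. When LOC100513953 was left out of that sum, 2 members passed and the median of all tested genes was 0.12.

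The third comparison set NMN-supplemented, heat-stressed oocytes against control and held the most calls. Relative to control, 10 members rose and 1 fell, 28.6% of members higher against 25.6% of all tested genes, and 2.86% lower against 15.7%, so the share that rose was close to the background. At an adjusted P under 0.05, 5 rose and none fell, against 12.4% and 9.17% of all tested genes. The 5 were FBXO21, FBXO30, KLHL7, KLHL11 and KLHL15. This comparison shares its control samples with the first comparison and its NMN samples with the second, so the 3 sets of values are not independent.

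Of the F-box genes, FBXO21 was at 10.4 and 10.3 FPKM in control and at 16.9 and 15.8 with NMN, higher by 0.61 ± 0.11 on the log2 scale (SE; adjusted P = 0.0237, limma). FBXO30 was at 19.1 and 15.0 against 27.7 and 29.2 FPKM (0.72 ± 0.14, adjusted P = 0.0295, limma). In both genes the NMN samples lay above all other samples.

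Of the KLHL genes, KLHL15 was at 2.68 and 2.83 FPKM in control and at 5.05 and 5.52 with NMN (0.74 ± 0.13, adjusted P = 0.0246, limma). KLHL11 was at 6.88 and 6.22 against 10.5 and 13.6 FPKM (0.78 ± 0.15, adjusted P = 0.0285, limma), and its NMN samples lay on either side of the heat-stressed samples. KLHL7, mutated in a form of retinitis pigmentosa, was at 4.57 and 4.86 against 7.54 and 6.65 FPKM (0.50 ± 0.11, adjusted P = 0.0373, limma). KLHL15 overlaps EIF2S3, which was at 0.476 to 0.669 FPKM.

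**Figure D2:**
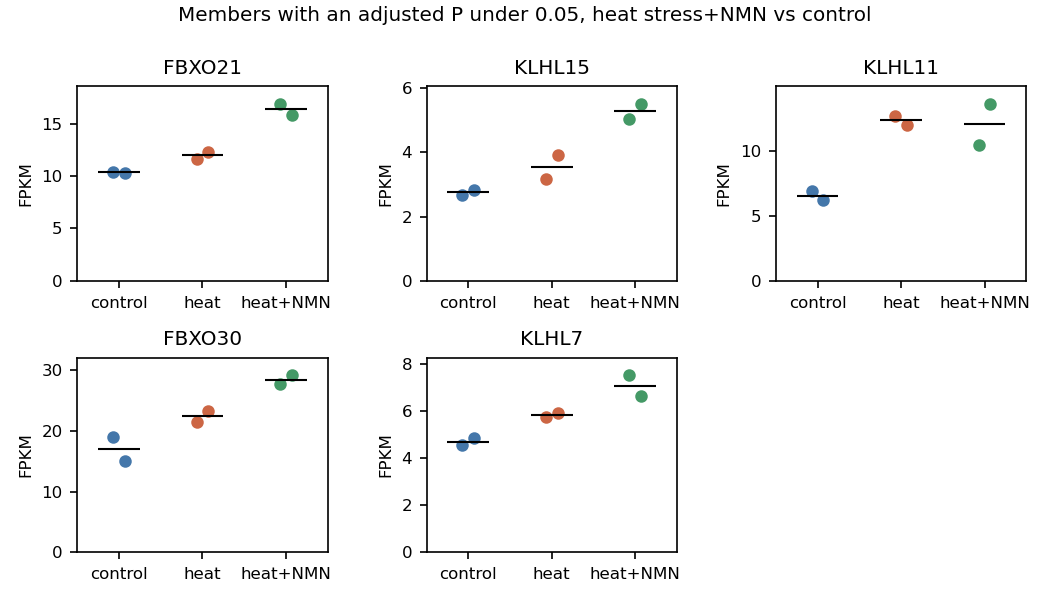
FPKM of the 5 members with an adjusted P under 0.05 between NMN-supplemented and control oocytes, with 1 point per sample and a line at the mean of each group; axes start at 0. In FBXO21, FBXO30, KLHL7 and KLHL15 both NMN samples lay above both heat-stressed samples, whereas in KLHL11 they lay on either side of them.

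These 5 genes kept an unadjusted P under 0.05 whichever sample was left out, but their adjusted P did not: the count of 5 fell to 2 without control replicate 1 and to 0 without control replicate 2, NMN replicate 1 or NMN replicate 2. Over all tested genes, calls at an adjusted P under 0.05 fell in these fits as well. The member count was also 0 when all genes with a mean of at least 0.1 FPKM were tested, where 86 of 11651 genes passed. In the main fit 1015 of 4713 had passed. The member count was 0 after scaling to the non-mitochondrial sum, where 281 of 4713 passed. It was 3 when LOC100513953 was left out of that sum, where 558 passed. The count of 11 became 6 without NMN replicate 1 and 2 under that scaling, under which only FBXO33 and KLHL15 passed, and it was 9 when LOC100513953 was left out of the sum.

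Another 5 members rose at the unadjusted threshold alone. FBXO33, an adaptor for the cold shock protein YB-1, was at 6.15 and 4.47 FPKM in control, 6.22 and 8.29 under heat stress and 11.2 and 8.51 with NMN (log2 fold change against control 0.79 ± 0.22, adjusted P = 0.0547, limma). FBXL5, the iron-sensing adaptor that targets IRP2, was at 5.67 and 5.34, 6.53 and 6.73, and 7.49 and 7.20 FPKM (0.36 ± 0.11, adjusted P = 0.0621, limma). FBXO5 was at 39.8 and 40.2 FPKM in control, within the range of the heat-stressed samples and below the NMN samples (0.35 ± 0.13, adjusted P = 0.0967, limma).

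KLHL32 was at 5.19 and 4.32 FPKM in control and at 6.29 and 6.80 with NMN (0.39 ± 0.14, adjusted P = 0.0979, limma). It overlaps MMS22L on the other strand, which was at 1.57 to 2.87 FPKM and also passed the unadjusted threshold (0.48). The library kit does not mark strand, so reads of the overlap cannot be assigned. KBTBD2 was at 2.10 and 1.84 against 2.80 and 3.15 FPKM (0.42 ± 0.16, adjusted P = 0.109, limma). The call of KBTBD2 was lost without any one of the control or NMN samples, that of FBXO5 without either control or NMN replicate 1, that of FBXL5 and KLHL32 without control replicate 2 or either NMN sample, and that of FBXO33 without control replicate 2 or NMN replicate 1. FBXO5 and KLHL32 also lost their calls after quantile normalization.

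FBXL12, whose targets include the CDK inhibitor p21, was the member that fell. It was at 12.3 and 9.76 FPKM in control, 9.12 and 8.69 under heat stress and 6.84 and 7.82 with NMN, with a log2 fold change against control of -0.52 ± 0.14 (adjusted P = 0.0554, limma). The call was lost without control replicate 1 (-0.37) or NMN replicate 1 (-0.44).

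**Figure D3:**
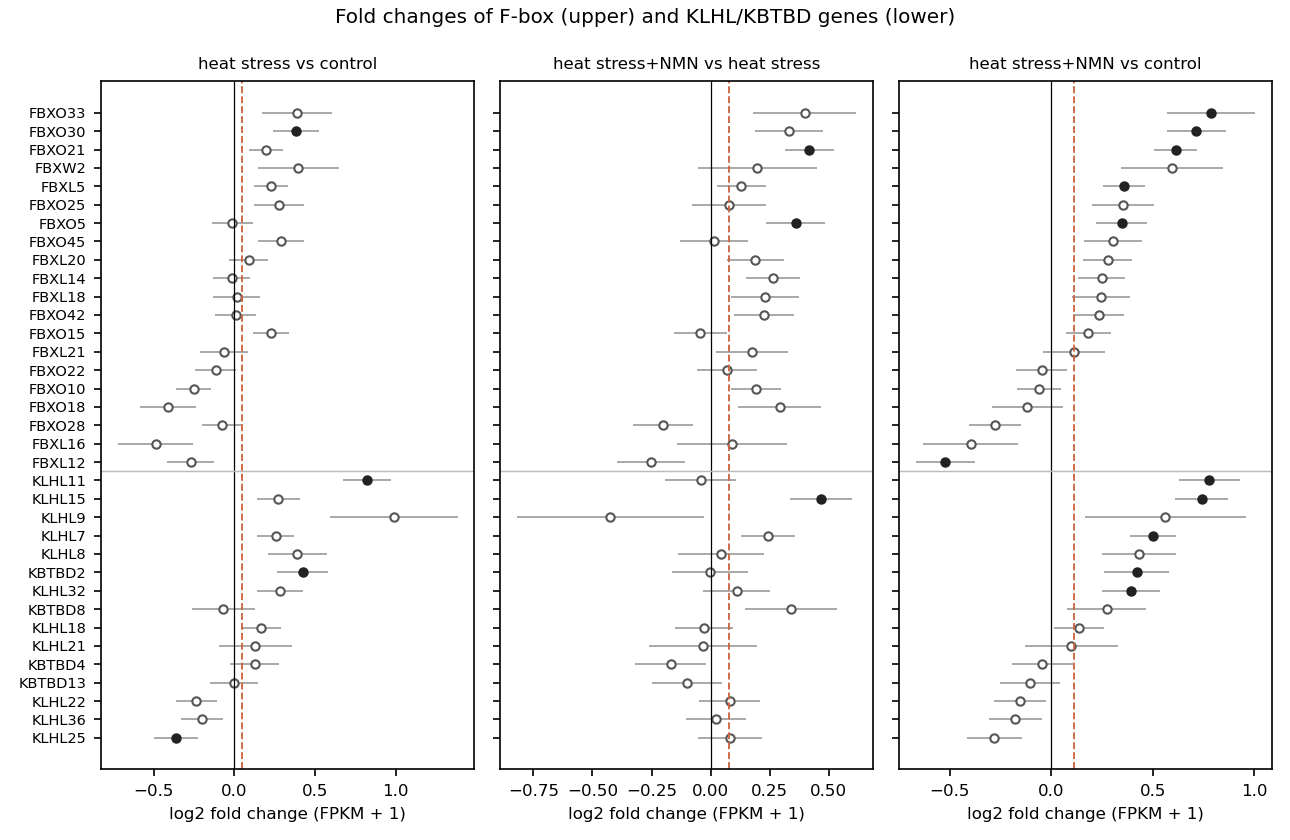
Log2 fold change (FPKM + 1) of the 35 tested members in the 3 comparisons, with bars of 1 SE; filled points have an unadjusted P under 0.05 and the dashed line is the median of all 4713 tested genes. Filled points numbered 4, 3 and 11 from left to right, and only KLHL25 on the left and FBXL12 on the right lay below 0.

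Of the 35 tested members, 12 were called in at least 1 comparison and 23 (14 F-box and 9 KLHL/KBTBD) in none. The same share over all tested genes is not given here. NMN against control alone called 25.6% of all tested genes higher and 15.7% lower, so the 12 do not set the members apart. The log2 fold changes of the 23 went from -0.49 (FBXL16) to 0.99 (KLHL9) in heat stress against control. They went from -0.42 (KLHL9) to 0.34 (KBTBD8) in NMN against heat stress and from -0.40 (FBXL16) to 0.59 (FBXW2) in NMN against control. FBXL14 was at 31.9 and 27.8 FPKM in control, 29.2 and 29.7 under heat stress and 36.3 and 34.9 with NMN, so that the NMN samples were the highest (adjusted P = 0.379 against heat stress and 0.162 against control, limma). FBXO10, an adaptor for BCL2, was at 13.3 and 12.3, 10.4 and 10.8, and 12.0 and 12.5 FPKM, lowest under heat stress. KBTBD4 overlapped in all groups, at 12.9 to 17.5 FPKM. KBTBD8 was at 1.32 to 1.70 FPKM in 5 samples and at 2.72 in NMN replicate 2. FBXO18 was at 1.57 and 0.971, 0.573 and 0.827, and 1.06 and 1.09 FPKM, and FBXO45 at 0.881 and 0.703, 1.31 and 1.07, and 1.38 and 1.05 FPKM.

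Of the tested members, 3 F-box and 6 KLHL/KBTBD genes share their locus with another annotated gene. The partner of FBXL14, WNT5B, was at most at 0.0903 FPKM and that of KBTBD4, NDUFS3, at most at 0.288 FPKM. The loci of FBXO33 and FBXO22 each hold 4 annotated genes, and the levels of the others are not given here.

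Some members moved in steps over the groups. In 7 of 35 members (20%) every heat-stressed sample lay above every control sample and every NMN sample above every heat-stressed sample, against 15.7% of all tested genes. These were FBXL5, FBXL20, FBXO21, FBXO30, FBXO33, KLHL7 and KLHL15, 5 of 20 F-box and 2 of 15 KLHL/KBTBD genes. FBXO33 and FBXL20 stepped by small margins, since the heat-stressed samples of FBXO33 began at 6.22 FPKM, next to 6.15 in control. The opposite order held for FBXL12 alone, against 7.09% of all tested genes. Of the 4 members called in heat stress against control, none was called in the other direction with NMN. That share over all tested genes is not given. With NMN against heat stress, 7.15% of all tested genes were called higher and 6.45% lower, so 4 members are too few to compare.

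The families were then counted apart. Of the 20 F-box genes, 1 was higher in heat stress, 2 were higher with NMN than in heat stress, and 5 were higher and 1 lower with NMN than in control. Of the 15 KLHL/KBTBD genes, 2 were higher and 1 lower, 1 was higher, and 5 were higher. The shares higher were 5%, 10% and 25% of F-box genes and 13.3%, 6.67% and 33.3% of KLHL/KBTBD genes, beside 12.7%, 7.15% and 25.6% of all tested genes. The shares lower were 0, 0 and 5%, and 6.67%, 0 and 0, beside 10.1%, 6.45% and 15.7%. The median log2 fold change was 0.011 for F-box and 0.17 for KLHL/KBTBD genes in heat stress against control, beside 0.049 for all tested genes. With NMN against heat stress it was 0.19 and 0.023, beside 0.078, and with NMN against control it was 0.25 and 0.27, beside 0.11. The difference between the families was not tested, since genes of a family are not replicates.

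The ends of the transcripts were searched for the motif shown above. A CPE-type motif (TTTTAT or TTTTAAT, sense strand) was found in the last 100 bases of 8 of 20 F-box genes (40%) and of 1 of 15 KLHL/KBTBD genes, KLHL11, against 25.7% of the 3910 tested genes with an annotated 3′ end. The F-box genes with it were FBXO5, FBXO30, FBXO33, FBXO18, FBXO28, FBXO42, FBXO45 and FBXL16. A polyadenylation signal (AATAAA or ATTAAA) was found in 82.9% of members and 82.0% of all. A match describes these letters in the annotated end and is not a site of regulation, and the end used in oocytes may differ.

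Of the 9 members with the motif, 4 were higher with NMN than in control and none was lower, and of the 26 without it 6 were higher and 1 was lower. Over all tested genes with an annotated end the split of the calls was uneven as well: 35.4% of the 1004 genes with it were higher and 6.57% lower, and 25.7% of the 2906 without it were higher and 17.8% lower. With NMN against heat stress these shares were 12.2% and 1.59% with the motif, and 6.09% and 7.09% without it. In heat stress against control they were 14.7% and 6.18%, and 12.9% and 10.7%. FBXO21, KLHL7 and KLHL15, which passed the adjusted threshold, had no motif in this window.

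**Figure D4:**
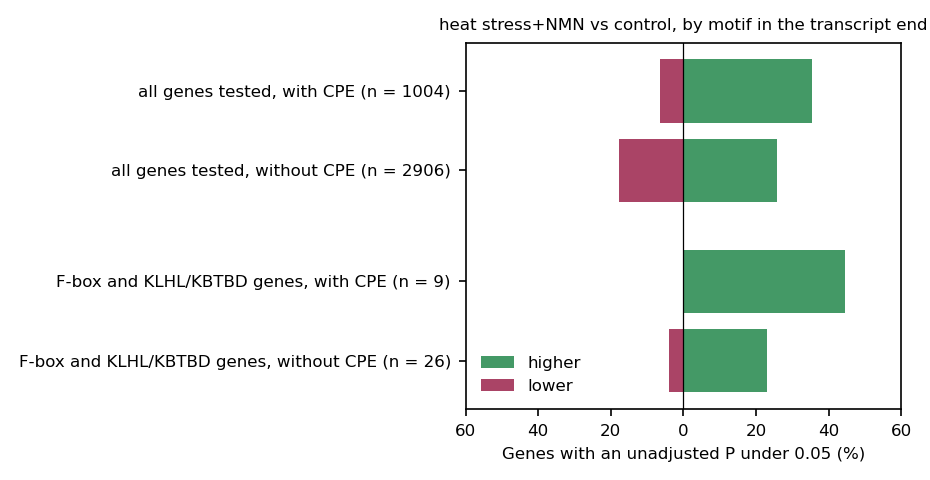
Percent of genes called higher (right of 0) or lower (left of 0) at an unadjusted P under 0.05 in NMN-supplemented against control oocytes, by presence of a CPE-type motif in the last 100 bases of the transcript. Genes with the motif were higher in 35.4% and lower in 6.57% of cases over all tested genes, and higher in 4 and lower in 0 of 9 members.

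A motif of the heat shock element type (GAANNTTC or TTCNNGAA, each of which reads the same on both strands) was searched from 250 bases before to 50 bases after the annotated start. It was found in 5 of 35 members (14.3%), FBXO5, FBXO22, FBXO33, KLHL9 and KLHL18, against 11.8% of the 3910 genes. None of these was called in heat stress against control, where 12.7% of all tested genes were higher and 10.1% lower. With 5 genes this cannot be told from those shares.

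The proteins that work with the adaptors were described from a list of 74 genes. The table held 73 of them, and 29 passed the filter. Against control, heat stress had 6 higher and 3 lower, 20.7% and 10.3% of the 29 beside 12.7% and 10.1% of all tested genes. NMN-supplemented oocytes had 11 higher and 4 lower than control, 37.9% and 13.8% beside 25.6% and 15.7%. NMN against heat stress had 2 higher and 1 lower, 6.90% and 3.45% beside 7.15% and 6.45%. Over the 29 genes the median change on the log2 scale was 0.15 in heat stress against control, 0.091 in NMN against heat stress and 0.18 in NMN against control.

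The scaffolds were at low levels. CUL1, which carries the F-box proteins, was at 1.75 and 1.99 FPKM in control, 2.13 and 2.37 under heat stress and 2.58 and 2.40 with NMN, a log2 fold change with NMN against control of 0.28 ± 0.12 (adjusted P = 0.133, limma). CUL3, which carries the KLHL and KBTBD proteins, was at 0.333 to 0.575 FPKM and was not tested. SKP1 was at 9.27 to 13.7 FPKM and RBX1 at 5.04 to 6.84 FPKM, without a call. CUL4B, a scaffold for other adaptors, rose in heat stress (0.37 ± 0.13) and with NMN against control (0.45 ± 0.13), with adjusted P of 0.185 and 0.0579 in limma. RNF7, the RING partner of CUL5, was at 12.1 and 12.2 FPKM in control and 16.4 and 15.2 in heat-stressed oocytes, and rose by 0.35 ± 0.14.

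Of 5 tested genes of cullin neddylation, 3 rose against control both in heat stress and with NMN, comparisons in which 12.7% and 25.6% of all tested genes rose. UBE2M, the E2 enzyme for NEDD8, was not called (-0.08 ± 0.36 and -0.45 ± 0.36), nor was DCUN1D1 (0.18 ± 0.12 and 0.08 ± 0.12). UBA3, the catalytic subunit of the NEDD8-activating enzyme, was at 2.44 and 2.75 FPKM in control, 4.40 and 3.80 under heat stress and 4.59 and 4.42 with NMN. It rose by 0.50 ± 0.12 and by 0.62 ± 0.12 against control (adjusted P of 0.130 and 0.0293, limma). DCUN1D4, a co-factor of neddylation, rose by 0.36 ± 0.10 and 0.59 ± 0.10 (adjusted P of 0.149 and 0.0242), and its relative DCUN1D5 by 0.31 ± 0.12 and 0.39 ± 0.12 (adjusted P of 0.215 and 0.0706). NEDD8 itself was at 0.773 and 1.07 FPKM in control, 0.486 and 0.173 under heat stress and 0.298 and 0.257 with NMN, below the filter.

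ARIH1, a RING-between-RING ligase that attaches the first ubiquitin on neddylated cullin complexes, was called in all 3 comparisons. It was at 4.92 and 3.92, 5.78 and 7.12, and 8.93 and 8.95 FPKM, which for NMN against control was 0.88 ± 0.15 on the log2 scale (adjusted P = 0.0237, limma). Of the E2 enzymes, UBE2D1 was at 0.936 and 1.26 FPKM in control, 1.36 and 1.13 under heat stress and 1.99 and 2.01 with NMN (0.52 ± 0.14 against control, adjusted P = 0.0481, limma). UBE2D2 and UBE2G1 rose by 0.36 and 0.39 in the same comparison. CDC34, the ubiquitin chain-building E2 of SCF ligases, fell from 17.9 and 15.2 FPKM in control to 9.18 and 11.5 under heat stress and was at 12.1 and 12.6 with NMN. Its log2 fold change was -0.63 ± 0.15 in heat stress and -0.39 ± 0.15 with NMN against control (adjusted P of 0.127 and 0.112, limma).

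CAND1, the exchange factor that swaps F-box proteins on CUL1, was at 38.3 and 37.6 FPKM in control and 47.7 and 54.2 with NMN (0.41 ± 0.13, adjusted P = 0.0764, limma). COPS7B, a subunit of the COP9 signalosome that removes NEDD8, was at 1.74 and 2.55, 1.44 and 0.768, and 0.962 and 0.966 FPKM, lower than control in heat stress (-0.59 ± 0.21) and with NMN (-0.67 ± 0.21). Adjusted P was 0.195 and 0.0721 in limma.

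Adaptors with other symbols were mixed. NCCRP1, an F-box-associated gene, fell in heat stress (-0.45 ± 0.15, adjusted P = 0.184, limma) and with NMN against control (-0.41 ± 0.15, adjusted P = 0.0979). SKP2 was at 0.259 to 1.05, BTRC at 0.443 to 0.632, CCNF at 0 to 0.102 and KEAP1, the sensor of oxidative stress, at 0.0212 to 0.394 FPKM, all below the filter. Of the CUL3 adaptors, KCTD10 and KCTD13 rose with NMN against control by 0.60 ± 0.15 and 0.33 ± 0.11 (adjusted P of 0.0449 and 0.0861, limma). KCTD2 was level between control and heat-stressed oocytes, at 6.27 and 6.43 against 6.32 and 6.27 FPKM, and was at 4.56 and 4.49 with NMN. It was the only listed gene called lower with NMN than in heat stress (-0.40 ± 0.10, adjusted P = 0.271, limma), and it also fell against control (-0.41 ± 0.10, adjusted P = 0.0434). CCIN, named after its values were seen, was at 7.59 and 11.5 FPKM under heat stress and 4.26 and 7.01 with NMN, without a call (-0.67 ± 0.27, adjusted P = 0.360, limma).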

How the data were processed

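Libraries from mRNA of porcine oocytes were sequenced on an Illumina platform, with 2 samples in each of 3 groups assigned from the labels. The study's methods state trimming with cutadapt and alignment with tophat2. The submitters' processing notes name Cufflinks 2.2.1, Cuffnorm and Cuffdiff, and the authors deposited FPKM for 29861 genes and 6 samples. Read counts were not used here, so depth is unknown. The authors' fold changes, p-values and q-values, and their lists of differentially expressed genes, were not used. FPKM were transformed to log2(FPKM + 1), which understates changes of low genes, and 4713 genes with a mean of at least 1 FPKM were fitted in limma 3.58.1 (R 4.3.3), in 1 model of 3 groups with a variance trend. The test was two-sided, and P-values were adjusted by Benjamini-Hochberg over all tested genes. An exact permutation test of 2 against 2 samples cannot go below 0.333. The fit was tested on simulated data.

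Genes were named if called without overlap, among the 6 highest of a family, next to the filter, or listed for a known role. Members and lists, and the motif search, were chosen with earlier results of these data known, and 2 genes matching the pattern are not reported here. Gene models and sequences came from RefSeq's annotation of Sscrofa11.1, read with Python 3.11.15 and pysam 0.24.0. Alternatives changed the pseudocount, filter, scaling, variance trend, block, groups fitted and samples. Scaling without LOC100513953 was chosen after seeing the data.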

Additional observations from a re-analysis of the deposited data

How the results depend on the processing

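Heat stress against control had 4 member calls. There were 7 with a minimum of 0.1 FPKM, 2 with a minimum of 5, 13 with no minimum, 2 after scaling to the non-mitochondrial sum, 2 when LOC100513953 was left out of that sum, 1 when only the compared groups were fitted, and 1 to 6 when 1 sample was left out. NMN against heat stress had 3 calls, and 6 with a minimum of 0.1 FPKM, 7 with no minimum, 0 after scaling to the non-mitochondrial sum, 5 when only the compared groups were fitted, and 1 to 5 when 1 sample was left out. NMN against control had 11 calls, and 18 with a minimum of 0.1 FPKM, 20 with no minimum, 2 after scaling to the non-mitochondrial sum, and 6 to 13 when 1 sample was left out. At an adjusted P under 0.05 it had 5 calls, 0 with a minimum of 0.1 FPKM, with no minimum or after scaling to the non-mitochondrial sum, 3 when LOC100513953 was left out of that sum, and 0 to 4 when 1 sample was left out. With LOC100513953 left out of the non-mitochondrial sum, NMN against heat stress had 2 calls and NMN against control had 9. No member had an absolute log2 fold change over 1, so all 4 counts were 0 at that limit. Over all tested genes the counts moved as well. Heat stress against control had 1074 calls among 4713 genes, 562 after scaling to the non-mitochondrial sum, and 2388 among 20552 with no minimum. The same counts were 641, 269 and 1557 for NMN against heat stress, and 1948, 789 and 3700 for NMN against control. At an adjusted P under 0.05 they were 1015, 281 and 0 for NMN against control. Lower minimums test more genes; other causes were not tested. The log2 ratio of the family medians was -1.34 with a minimum of 0.1 FPKM and 0.77 with a minimum of 5, and -0.14 to -0.061 when 1 sample was left out. Apart from that limit, of 18 called gene results 1 (KLHL15, NMN against control) kept its call in every setting in which it was tested, which leaves out the minimum of 5 FPKM, and none changed direction. Scaling to the non-mitochondrial sum moved the median of all genes by -0.27 in heat stress against control and by 0.28 in NMN against heat stress. These shifts were -0.028 and 0.041 when LOC100513953 was left out of that sum. Apart from the fold change limit and fits without 1 sample, only scaling to the full sum removed the calls of KLHL11 and FBXO21. The same held for KLHL15 in NMN against heat stress, and for FBXO30, KLHL7, FBXL5 and FBXL12 in NMN against control.

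Same-numbered samples did not deviate together (correlations of deviations -0.032, 0.008 and -0.014), and no source says whether they were collected together. With the replicate number as a block, heat stress against control had 2 calls, NMN against heat stress 2, NMN against control 9, and 2 at an adjusted P under 0.05.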
